A study of Mus musculus with 2 samples.

Results

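The globin genes of adult mouse spleen were followed in the RNA of 1 organ that was made into 2 sequencing libraries. The genes listed by name were the adult alpha genes Hba-a1 and Hba-a2, the adult beta genes Hbb-bs and Hbb-bt, the embryonic genes Hba-x, Hbb-bh1 and Hbb-y, and Ahsp, a chaperone of free alpha globin. Of these 8 genes, 7 were matched by symbol to a row among 43346 Ensembl genes, and 4 had enough reads to be compared between libraries. Ahsp was not matched and is not analysed here.

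The spleen came from a male C57BL/6J mouse aged 10 weeks, with no treatment named in the labels, and polyadenylated RNA was sequenced. The libraries are technical replicates 1 and 2 of the same biological replicate. Per the labels, RNA was extracted with a QIAGEN kit for lipid-rich tissue, and the replicate made in May 2015 is the second. The comparison was replicate 2 over replicate 1, with 1 library on each side, so no p-value was computed. Reads may be PCR copies of one molecule, and the intervals given below allow for counting error alone.

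Haemoglobin is a tetramer of alpha and beta chains, made in equal number by red cell precursors. The genes lie in separate clusters, the alpha genes on chromosome 11 and the beta genes on chromosome 7 in the mouse, and within each cluster embryonic genes are used before adult ones. In C57BL/6 mice the adult beta genes are Hbb-bs and Hbb-bt, and adult mouse spleen holds red cells and some precursors beside lymphocytes and macrophages. In a bulk sample, fewer cells of a type and less RNA per cell cannot be told apart.

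Hba-a1 (chr11:32283511-32284465, plus strand) and Hba-a2 (chr11:32296489-32297298, plus strand) each have 3 exons, and their starts lie 12978 bases apart (GRCm38, GENCODE M21). Hbb-bs (chr7:103826534-103828096) and Hbb-bt (chr7:103812524-103813996) also have 3 exons each, on the minus strand. The copies within each pair are nearly the same in sequence, which bears on every statement about a single copy. The coding sequences of Hba-a1 and Hba-a2, 426 bases each without the stop codon, differed by the single substitution C381T, counted from 1 at the A of the start codon, with the Hba-a1 base first. Those of Hbb-bs and Hbb-bt, 441 bases each, differed by the single substitution C417T, with the Hbb-bs base first. Both fall on the third base of a codon, in exon 3. The 41 bases around each difference are shown because a read within the coding sequence can tell the copies apart at that base alone, which stands in capitals.
Hba-a1, chr11:32284323-32284363, plus strand: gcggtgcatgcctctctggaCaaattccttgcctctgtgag
Hba-a2, chr11:32297140-32297180, plus strand: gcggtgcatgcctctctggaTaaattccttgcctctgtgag
Hbb-bs, chr7:103826672-103826712, minus strand: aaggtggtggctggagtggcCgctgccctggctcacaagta
Hbb-bt, chr7:103812663-103812703, minus strand: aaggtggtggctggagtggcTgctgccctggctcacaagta

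Outside the coding sequence the alpha models differ in where they are annotated to begin and end. The main Hba-a1 model, Hba-a1-201, carries 161 more bases at its 5′ end than Hba-a2-201, and Hba-a2-201 carries 16 more bases at its 3′ end. The same 161 bases also lie before Hba-a2 in the genome, outside its model. They are thus a difference of annotation and not of sequence. Of the 50-base windows of Hba-a2-201, 86.9% occurred unchanged in Hba-a1-201, and 65.8% of those of Hbb-bs-201 occurred in Hbb-bt-201. The embryonic genes are much further away. Hbb-y matched Hbb-bs at 74.38% of coding positions, Hbb-bh1 matched it at 73.92%, and Hba-x matched Hba-a1 at 61.74%.

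The 120 bases before the RefSeq start are shown for 3 of the 4 adult genes. The Hba-a1 window is left out because its sequence is that of Hba-a2, offset by 3 bases. These sequences describe the genes, and their part in the ratios between libraries was not tested. The RefSeq start lies inside the GENCODE gene span given above, by 3 bases for Hba-a2, 168 for Hbb-bs and 73 for Hbb-bt, since the GENCODE models begin further upstream. Capitals mark 4 short motifs wherever they occur on either strand. They are the CCAAT box, the CACCC box bound by Klf1, the core TATAA of the TATA box and the core GATAA of sites for GATA factors. The sequences are from RefSeq (GRCm38.p6).
Hba-a2, chr11:32296372-32296491, plus strand: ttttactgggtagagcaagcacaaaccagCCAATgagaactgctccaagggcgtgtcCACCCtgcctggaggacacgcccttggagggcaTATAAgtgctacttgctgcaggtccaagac
Hbb-bs, chr7:103827929-103828048, minus strand: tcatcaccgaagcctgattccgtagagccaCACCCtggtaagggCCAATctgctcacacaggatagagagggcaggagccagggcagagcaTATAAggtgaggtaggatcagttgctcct
Hbb-bt, chr7:103813924-103814043, minus strand: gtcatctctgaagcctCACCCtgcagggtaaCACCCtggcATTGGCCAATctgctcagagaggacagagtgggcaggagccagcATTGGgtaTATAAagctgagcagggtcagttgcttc

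Each of the 4 adult promoters held the CCAAT box, the CACCC box and the core TATAA, a combination found in 0.688% of 32851 promoter windows of the same length. Singly, CCAAT occurred in 21.3% of all windows, the CACCC box in 31.7%, the core TATAA in 11.8% and the core GATAA in 10.5%. TATAA began 30 bases before the RefSeq start of Hba-a2, 29 before that of Hbb-bs and 28 before that of Hbb-bt. The Hba-a1 and Hba-a2 entries, offset by 3 bases, were identical over the 297 bases they share, so the promoter window does not tell the alpha copies apart. Hbb-bs and Hbb-bt matched at 74.6% of aligned positions over the 120 bases. Among embryonic genes, the Hba-x window lacked only the CCAAT box of these 4 motifs, and the Hbb-y window held the CCAAT and CACCC boxes but neither of the other cores. The RefSeq table gave a promoter for 6 of the 7 matched genes, and Hbb-bh1 was not among them.

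The genes summed to 27528824 expected counts in replicate 1, which was 7.23 times deeper than replicate 2 with 3806381. An expected count is a read count in which reads shared by several genes are divided among them. TPM, a share of all transcripts, divides by length, so it was used to compare genes with each other. B cell markers (5 of 5), T cell markers (3 of 3) and red pulp macrophage markers (5 of 5) reached 1 TPM in both libraries, as did 3 of 4 spleen stroma markers in replicate 1 and 4 in replicate 2. The summed TPM of B cell markers was 2806 in replicate 1 and 1125 in replicate 2. That of T cell markers was 327.6 and 56.2, and that of red pulp macrophage markers 1099 and 223.7. Their median log2 TPM ratios were -3.29, -2.49 and -1.80 in that order, beside -2.10 over all tested genes. Under TMM and the rule given below, 2 B cell markers were higher and 3 lower, against 24.4% and 38.5% of all tested genes. Red pulp macrophage markers had 2 higher and 2 lower, and T cell markers 0 and 1. Stroma markers summed to 405.9 and 561.0 TPM, of which Ccl21a by itself held 388.7 and 539.7. Of the other stroma markers, Tlx1 had 10.7 and 13.7 TPM, Nkx2-5 0.08 and 4.90, and Nkx2-3, in the opposite direction, 6.47 and 2.76. The part of cell makeup in the globin values was not tested. Ratios between libraries depend on the scaling. The TMM scaling used here places every log2 ratio 0.98 above its value under total counts, and the median over 12467 tested genes was -0.55 with TMM, -1.53 with total counts and -2.10 for TPM.

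All 4 adult globin genes were higher in replicate 2, meaning that the whole 95% counting interval lay beyond 1.5-fold. Among all tested genes 24.4% were called higher and 38.5% lower by the same rule. Scaled by total counts, 14.6% were higher and 58.5% lower. These are 3041 and 4798 genes with TMM against 1820 and 7295 with total counts, and the 4 globin genes were called higher with both. Their summed share of all TPM was 4.26% in replicate 1 and 44.2% in replicate 2, and their share of all counts was 1.53% and 30.9%.

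**Figure D1:**
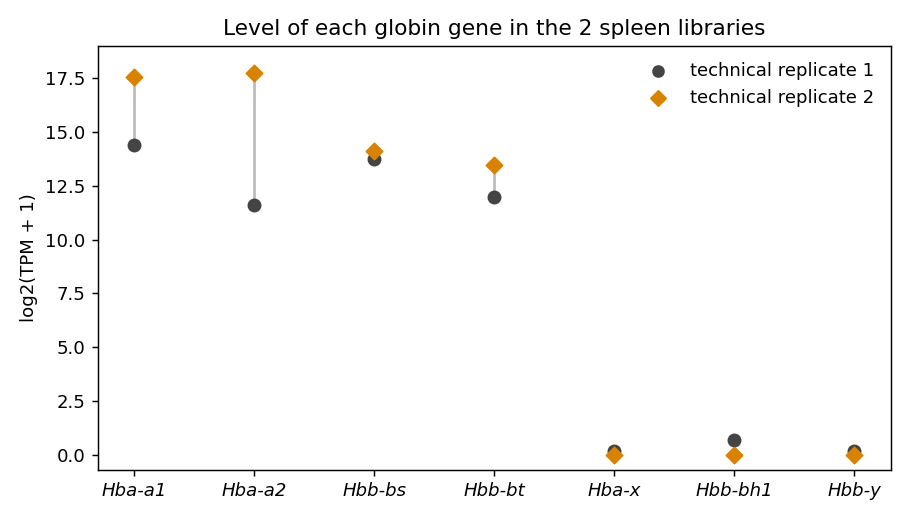
Level of each of the 7 matched globin genes as log2(TPM + 1) in technical replicate 1 (circles) and technical replicate 2 (diamonds), 1 library each, joined by a line. The lines of Hba-a1 and Hba-a2 are longest, that of Hbb-bs is short, and the 3 embryonic genes lie near 0 in both libraries.

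The alpha genes accounted for most of this difference. Hba-a1 had 210496 counts in replicate 1 and 548615 in replicate 2, or 21651 and 195490 TPM. It ranked 4 by TPM in replicate 1 and 2 in replicate 2. Although replicate 2 was shallower, it held more Hba-a1 reads in absolute number.

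Hba-a2 had 21359 counts and 534751 counts, or 3077 and 217252 TPM. It ranked 32 in replicate 1 and 1 in replicate 2, so the less abundant alpha copy of the first library was the most abundant gene of the second. The TMM log2 ratio was 5.21 (95% interval 5.21 to 5.22) for Hba-a1 and 8.48 (8.46 to 8.50) for Hba-a2. As a TPM ratio, Hba-a1 was 9.03-fold higher and Hba-a2 70.6-fold higher. Only 18 tested genes, 0.14%, had a larger TMM ratio than Hba-a2, and 172 had a larger one than Hba-a1.

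Because reads can move between the copies, their sum is the firmer value. Together the alpha genes held 24728 TPM in replicate 1 and 412742 TPM in replicate 2, which is 2.47% and 41.3% of all TPM. The sum was 16.7-fold higher per TPM, and its TMM log2 ratio was 6.06.

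The beta genes were higher by less. Hbb-bs had 150008 counts in replicate 1 and 55954 in replicate 2, or 13808 and 17876 TPM, at ranks 8 and 5. Its log2 ratio was 2.41 (2.40 to 2.42) with TMM scaling and 1.43 when scaled by total counts. Per TPM it was 1.29-fold higher, short of the 1.5-fold threshold, so the call on Hbb-bs does not extend to the TPM scale.

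Hbb-bt had 39338 counts and 37666 counts, or 4015 and 11285 TPM, at ranks 25 and 7. Its log2 ratio was 3.77 (3.75 to 3.79) with TMM scaling and 2.79 when scaled by total counts, and it was 2.81-fold higher per TPM. The sum of both beta genes was 17823 TPM in replicate 1 and 29161 TPM in replicate 2, 1.64-fold higher. As for the alpha pair, the copy that was less abundant in replicate 1 had the larger ratio.

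**Figure D2:**
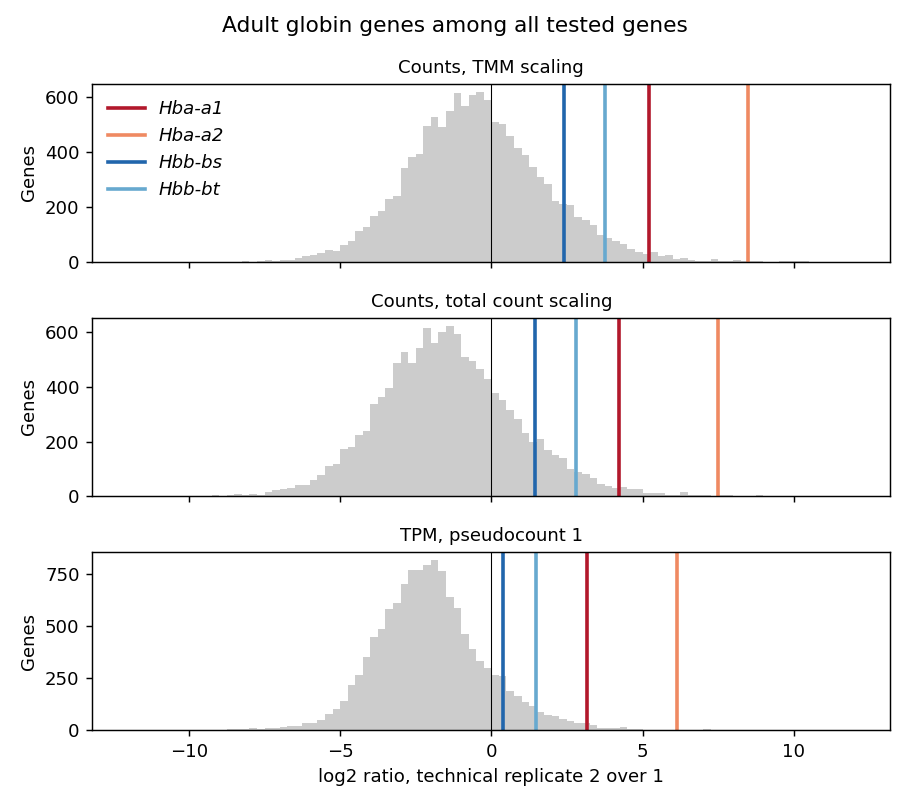
Histograms of the log2 ratio of technical replicate 2 over technical replicate 1 for 12467 tested genes, as counts scaled by TMM, as counts scaled by total count and as TPM with a pseudocount of 1, with vertical lines for the 4 adult globin genes. The order Hba-a2, Hba-a1, Hbb-bt, Hbb-bs, from high to low, is the same in the 3 panels, and every line lies above 0 and above the bulk of the genes.

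Within a library, alpha and beta counts can be compared with no scaling between libraries. Alpha counts were 1.22 times beta counts in replicate 1 (95% interval 1.22 to 1.23) and 11.6 times in replicate 2 (11.5 to 11.6). Per TPM the ratio was 1.39 in replicate 1 and 14.2 in replicate 2. The alpha to beta count ratio was thus 9.45-fold higher in replicate 2 (9.37 to 9.54, counting error only). Before any correction for base composition, every pairing of 1 alpha with 1 beta gene gave a higher ratio in replicate 2, from 2.72-fold for Hba-a1 with Hbb-bt to 67.1-fold for Hba-a2 with Hbb-bs.

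Base composition moved with this difference. The alpha transcripts had GC contents of 57.4% (Hba-a1) and 56.9% (Hba-a2), above 90.7% and 88.6% of tested genes, and the beta transcripts 51.6% (Hbb-bs) and 50.8% (Hbb-bt). Over all tested genes the log2 ratio rose with GC content. With that trend removed, so that a gene at the trend keeps the median ratio, the summed alpha ratio was 4.01 and the summed beta ratio 2.66 on the log2 scale. The difference between alpha and beta then fell from 9.45-fold to 2.56-fold, and all 4 genes were still called higher. Of the 4 pairings, Hba-a1 with Hbb-bt turned round, with a ratio 0.624 times that of replicate 1, and the other pairings stayed higher at 1.85-fold (Hba-a1 with Hbb-bs), 6.87-fold (Hba-a2 with Hbb-bt) and 20.4-fold (Hba-a2 with Hbb-bs). Pairings with a trend removed were added after seeing the data. All 4 transcripts are also short, with 3.3% to 5.9% of tested genes shorter, and with the trend over length removed the alpha to beta difference was 12.6-fold. The part of GC content in the alpha to beta ratio was not tested further.

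**Figure D3:**
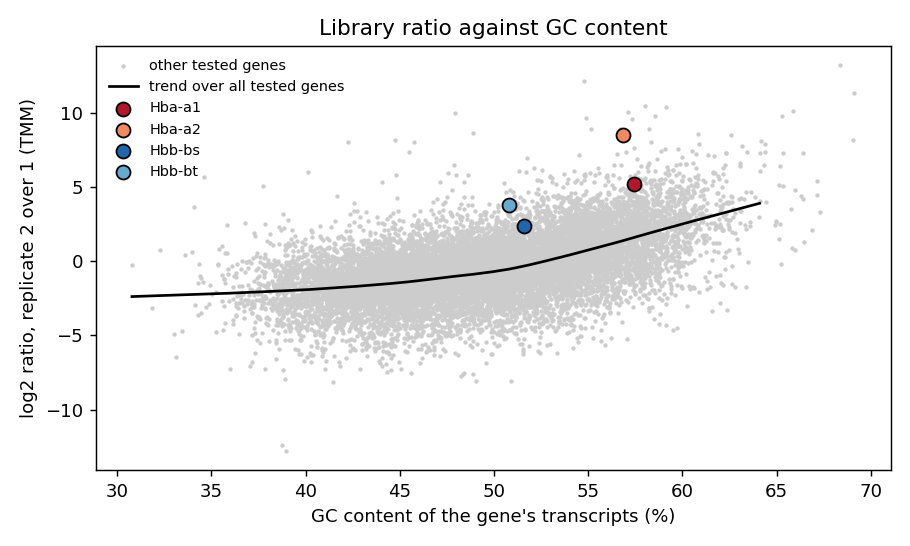
TMM log2 ratio of technical replicate 2 over 1 against the GC content of each gene's transcripts, with tested genes in grey, their trend as a black line and the 4 adult globin genes as large circles. The alpha genes lie at 57.4% and 56.9% GC, where the trend is higher than at the 51.6% and 50.8% of the beta genes, and all 4 lie above the line.

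The split between near-identical copies also differed between the libraries. Hba-a1 took 90.8% of alpha counts in replicate 1 (90.7 to 90.9) and 50.6% in replicate 2 (50.5 to 50.7). Hbb-bs took 79.2% of beta counts in replicate 1 (79.0 to 79.4) and 59.8% in replicate 2 (59.5 to 60.1). Both pairs were more even in replicate 2, and per TPM Hba-a2 exceeded Hba-a1 there, with Hba-a1 at 47.4%. The quantifier's own uncertainty, deposited as a posterior standard deviation, was small in comparison, at most 1.05% of the count (Hba-a2 in replicate 1). That value describes the division of reads given the models, and since the coding sequences differ at 1 base, the split remains uncertain.

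**Figure D4:**
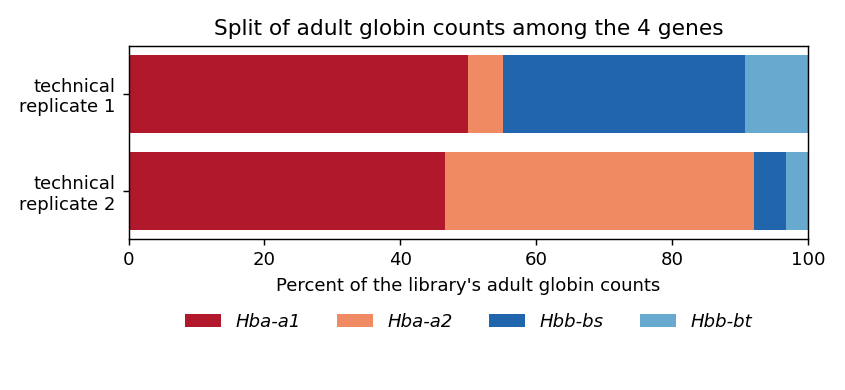
Percent of each library's adult globin counts assigned to Hba-a1, Hba-a2, Hbb-bs and Hbb-bt, 1 stacked bar per library. Hba-a1 holds 49.98% and 46.61%, Hba-a2 grows from 5.07% to 45.4%, Hbb-bs shrinks from 35.6% to 4.75% and Hbb-bt from 9.34% to 3.20%.

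Transcript tables showed a further difference within 2 of the genes. IsoPct gives each transcript's percent of the TPM of its gene. For Hba-a1, the spliced transcript Hba-a1-201 held 100% in replicate 1 and 57.82% in replicate 2. The remaining 42.18% in replicate 2 went to Hba-a1-202, a model of 494 bases that GENCODE classes as a retained intron, with 0 counts in replicate 1 and 174034 in replicate 2. For Hbb-bs, the retained-intron model Hbb-bs-202 held 8.38% in replicate 1 and 48.16% in replicate 2, with 7933 and 20951 counts. In contrast, Hba-a2-202, the matching model of the other alpha copy, held 0.59% and 0.37%, and Hbb-bt has 1 transcript in the tables.

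The alpha models concerned are hard to tell apart. Hba-a1-202 contains 113 of the 122 bases of the first Hba-a1 intron, and it differs from Hba-a2-202 at 1 base of 494. Of its 50-base windows, 75.1% also occur in the spliced Hba-a1-201. Over both alpha genes, retained-intron models held 0.0454% of counts in replicate 1 and 16.2% in replicate 2, and over both beta genes 4.19% and 22.4%. With those models left out, an alternative chosen after seeing the data, alpha counts were 1.28 times beta counts in replicate 1 and 12.5 times in replicate 2. Hba-a1 and Hbb-bs gained in this share, and Hba-a2 did not. Over 3267 genes with such a model and a mean of at least 10 TPM, the median share was 12.48% in replicate 1 and 0% in replicate 2, and 23.5% of genes had a higher share in replicate 2. A gain as large as that of Hbb-bs, 39.8 percentage points, was seen in 10.4% of them.

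**Figure D5:**
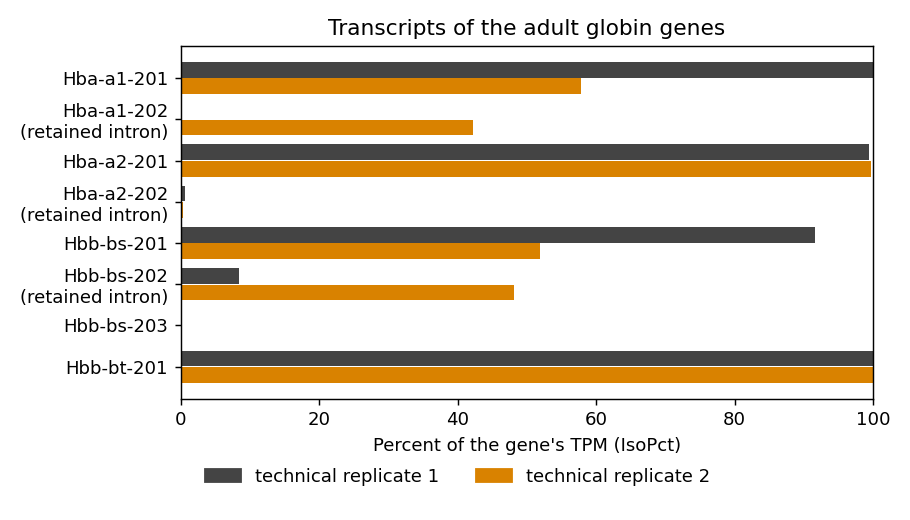
IsoPct, the percent of a gene's TPM, for each transcript of the 4 adult globin genes in technical replicate 1 (grey) and technical replicate 2 (orange). The retained-intron models Hba-a1-202 and Hbb-bs-202 reach 42.18% and 48.16% in replicate 2, while Hba-a2-202 stays under 1% in both libraries.

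Embryonic globin transcripts were few, near or under the limit of detection. Hbb-bh1 (chr7:103841637-103843164), expressed in primitive red cells of the yolk sac, had 5 counts in replicate 1 and 0 in replicate 2. Hbb-y (chr7:103851749-103853216), the embryonic epsilon-like gene, had 1 count and 0, and Hba-x (chr11:32276400-32278116), the zeta-like gene, also had 1 count and 0. Their sum of 7 counts in replicate 1 was 0.00166% of globin counts (exact binomial 95% interval 6.68e-04 to 0.00342%), or 60172 adult counts for each embryonic count. In replicate 2 the sum was 0 of 1176986 globin counts, with an exact binomial 95% upper limit of 3.13e-04%. With 3 counts in place of 0 the share would be 2.55e-04%. Relative to all reads, a difference between the libraries was not detectable at this depth, since replicate 2 would hold 0.97 embryonic counts at the rate of replicate 1. Relative to globin counts the share was lower in replicate 2, where 19.6 embryonic counts would stand at the share of replicate 1, and the exact intervals of the 2 shares did not overlap. That share has in its denominator the adult counts that were higher in replicate 2.

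Of 12 other globin genes and pseudogenes, 9 were matched and 4 had at least 1 count. The theta globin genes Hbq1a, beyond Hba-a2, and Hbq1b, between Hba-a1 and Hba-a2, had 10.83 and 40.17 counts in replicate 1 and 22.61 and 3.39 in replicate 2. These fractions show reads divided between similar copies, so the split of the theta genes is uncertain too. Cygb, cytoglobin, was the only one tested and was higher, with 97 and 45 counts and a log2 ratio of 2.72 (2.18 to 3.25). Ngb, neuroglobin, had 5 and 6 counts. Hbb-bh0, Hbb-bh2, Hbb-bh3, Hba-ps4 and Mb (myoglobin) had none in either library.

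Regulators of globin genes had members in both directions. Of 12 tested, 5 were higher, 3 lower and 4 neither, with a median log2 ratio of 0.37, beside 24.4% higher, 38.5% lower and a median of -0.55 over all tested genes. Gata1, the master factor of red cell development, had 124 and 79 counts and a log2 ratio of 3.18 (2.76 to 3.60). Klf1, which binds CACCC elements of the adult beta promoter, had 132 and 63 counts and stood at 2.77 (2.31 to 3.21). Ldb1, which joins globin enhancers and promoters, was at 3.30, Zbtb7a, a repressor of fetal globin, at 3.35 and Nfe2, a factor of the beta locus control region, at 1.32. Nfe2 was not called under total counts, at 0.34, and its TPM was 21.8 in replicate 1 and 7.85 in replicate 2, the opposite direction. Its effective length, by which TPM divides, was 985.7 bases in replicate 1 and 1562 in replicate 2.

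Lower regulators included Sox6, a repressor of the embryonic gene Hbb-y. Sox6 had 432 counts and 0, a log2 ratio of at most -3.34 with 3 counts in place of 0. Lmo2, a partner in the Gata1 complex, was at -1.09, and Eif2ak1, the heme-regulated kinase that restrains globin translation, at -1.93. The others were Tal1 at -0.51, Bcl11a at -0.18, Myb at -0.55 and Zfpm1 at 0.92, none past the threshold under TMM. Scaled by total counts, 4 of the 12 regulators stood higher and 6 stood lower, beside 14.6% and 58.5% of all tested genes. Their median was then -0.61, where that of all tested genes was -1.53.

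Neighbours of the alpha cluster were listed by their place beside it. Of 6 listed, 2 were higher, 1 lower and 3 neither under TMM, where all tested genes had 24.4% higher and 38.5% lower, and only 4 of the 6 lie on chromosome 11 in the mouse. Nprl3, whose introns hold the alpha globin enhancers, had 464 and 161 counts and a log2 ratio of 2.31 (2.04 to 2.57), but its TPM was 25.6 in replicate 1 and 9.81 in replicate 2. The effective length of Nprl3 was 947.4 bases in replicate 1 and 2795 in replicate 2. Snrnp25, a spliceosome protein gene, had 171 and 953 counts, a log2 ratio of 6.31 and 14.6 and 256 TPM. Mpg was at 0.32 and Rhbdf1 at 0.48, neither called. Luc7l, on chromosome 17, was lower at -1.86, and Polr3k, on chromosome 2, was at 0.77 without a call.

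Globin was also set beside other genes of late red cells. In a list of 15 such genes, 14 were tested, 5 higher, 3 lower and 6 neither, with a median log2 ratio of 0.42, against 24.4% higher and 38.5% lower over all tested genes. When scaled by total counts, 1 was higher and 6 were lower, against 14.6% and 58.5%. Their summed TPM was 1369 in replicate 1 and 1159 in replicate 2. Adult globin TPM was 31.1 times this sum in replicate 1 and 381 times in replicate 2. Alas2, the first enzyme of heme synthesis in red cells, held 421.0 and 790.7 TPM of the sum, and without it, a step added after seeing the data, the sums were 948.0 and 367.9 TPM and the multiples 44.9 and 1201. Against Alas2 by itself, adult globin TPM was 101.1 times and 558.9 times as high. Alas2 had 14334 and 2290 counts, with a log2 ratio of 1.19 under TMM, called higher, and 0.21 under total counts, not called. Its effective length, by which TPM divides, was 1779 bases in replicate 1 and 493.3 in replicate 2. The part of this length difference in its TPM, and so in these multiples, was not tested. A smaller list of 4 late markers, which holds Alas2, summed to 573.2 and 882.7 TPM, with 2 higher and 0 lower under TMM. Against all 15 genes, the multiple for alpha globin went from 18.1 to 356, and for beta globin from 13.0 to 25.2. The 4 markers of immature red cells, Gata1 and Klf1 among them, were all higher under TMM, and 3 of them under total counts. Their summed TPM was 100.2 in replicate 1 and 62.5 in replicate 2, but their median log2 TPM ratio was 0.57. Gata1 had 4.87 TPM in replicate 1 and 8.22 in replicate 2, and Klf1 had 5.14 and 7.67. Gata1 and Klf1 thus went against the lower sum. It came from the other markers in the list, Tfrc and Epor, whose summed TPM was lower in replicate 2.

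The genes with ratios nearest to the globin sums were of mixed kinds. Among 846 tested genes with a mean of at least 100 TPM, those nearest to the alpha sum were Mcrip1 (log2 ratio 6.12), Rps21 (6.13), Csnk1g2 (5.96), Rps9 (5.95) and Ap2s1 (5.87). Rps21 and Rps9 encode ribosomal proteins, and Rps9 held 727.7 TPM in replicate 1 and 11817 in replicate 2. Nearest to the beta sum of 2.82 were Arhgdia (2.82), Igha (2.81), Rps23-ps1 (2.80), Rpl36a (2.84) and Marc2 (2.84). Likeness here is over 1 ratio between 2 libraries. In replicate 2 the alpha genes were followed by Rplp2 and Rplp1, ribosomal stalk proteins, at 35749 and 35577 TPM.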

How the data were processed

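For each of the 2 libraries the authors deposited gene and transcript tables. Per the text deposited with them, the assembly was mm10 with GENCODE release M4. The sources used here do not name the quantifier. Columns in the deposited tables hold expected counts, TPM, FPKM, posterior estimates and, for transcripts, IsoPct as a percent. Other deposited columns give lengths in bases. The harmonic mean of effective length, weighted by counts, was 1438.3 bases in replicate 1 and 648.3 in replicate 2.

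The 8 genes and all lists were chosen with earlier results of these data known. Rows without an Ensembl identifier held 1.09e-05% and 2.10e-04% of counts and were left out. Of 43346 Ensembl rows, 42462 were matched to a symbol. Ahsp, Hbb-b1, Hbb-b2, Hba-ps3 and Hri, an older name of Eif2ak1, were not matched and are not analysed here. Expected counts were rounded and scaled with edgeR 4.0.16 (TMM over all Ensembl genes, R 4.3.3). Tested genes had a mean of at least 1 TPM and at least 50 counts over both libraries. A gene was called when its exact Clopper-Pearson 95% interval, conditional on its total count, lay beyond 1.5-fold. Zero counts entered ratios as 3 per library. Calling was also tested on simulated data. Shares carry exact binomial 95% intervals. Intervals of the ratio of ratios use the normal approximation to log counts.

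Genes named in the text are the 8 genes, other globins with at least 1 count, called members of the regulator and neighbour lists with at most 4 uncalled ones, and the 5 genes nearest in ratio to each globin sum. The TPM leaders Rplp1 and Rplp2 were named after their values were seen. Alas2, Tfrc, Epor and the stroma markers Tlx1, Nkx2-5, Nkx2-3 and Ccl21a belong to the lists but were named outside this rule. Coding sequences, exons and coordinates came from GENCODE M21 on GRCm38. Hbb-bs-201 has another length in M21 (628 bases) than in the files (778), so transcript lengths are from the files and shared windows from M21. Alternatives were DESeq2 1.42.0 size factors, total counts, TPM ratios, other thresholds, no filter and GC or length trends removed (lowess, statsmodels 0.14.6). Python 3.11.15 was used for other steps.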

Additional observations from a re-analysis of the deposited data

How the results depend on the processing

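Across 12 alternatives, the log2 ratios of the 4 adult globin genes and of the alpha and beta sums gave 72 values. None changed sign, and 69 stayed on the same side of the threshold. The 2-fold threshold, the 99% interval and the setting with no filter reuse the main ratios, so their values could not change sign. With no filter the globin calls could not change either. The 3 others were Hbb-bs as a TPM ratio, at 0.37 with either pseudocount and 0.27 from posterior means, short of 1.5-fold. The alpha sum ranged from 3.96 to 6.34 and the beta sum from 0.61 to 3.10. TMM over the tested genes alone, chosen after seeing the data, gave the highest values. Over all tested genes, 807 were higher and 8741 lower by TPM with a pseudocount of 1, 879 and 9590 with 0.1, 769 and 8270 from posterior means, and 1820 and 7295 under total counts, against 3041 and 4798 under TMM. In TPM, alpha to beta was 1.39 in replicate 1 and 14.2 in replicate 2. By counts it was 1.40 and 9.80 with Hba-a1 and Hbb-bs only. Without retained-intron transcripts, chosen after seeing the data, it was 1.28 and 12.5, also by counts. With the GC trend removed, added after seeing the data for pairings, the alpha to beta ratio of Hba-a1 with Hbb-bt was 0.624 times that of replicate 1, against 2.72-fold. In TPM the Hba-a1 share of alpha was 87.6% and 47.4%, and the Hbb-bs share of beta 77.5% and 61.3%. Posterior mean counts left these shares and ratios within their intervals. The IsoPct of Hba-a2-202 in replicate 2 was 0.42% from posterior means against 0.37%. Ratios with Ahsp were not run, because it was not matched. No paired analysis was possible because each group has 1 library. Leaving out a library leaves no comparison. Depth limits the embryonic genes, whose count of 0 in replicate 2 leaves a share of up to 3.13e-04% of globin counts.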
